A study of Mus musculus with 4 samples.

Results

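The nuclear-encoded subunits of mitochondrial complex I were examined in RNA-Seq data of HT-22, a mouse hippocampal neuron line that has been immortalized. The subunits were chosen by gene symbol, as Nduf followed by a, b, c, s, v or ab and a number, which leaves out the Ndufaf assembly factors. This gave 37 genes of 11502 gene symbols with values, and all 37 passed the filter on low values, a mean over the libraries of 1 FPKM or more, as did 10604 genes in all. There were 4 groups with 1 library each: cells described as wild type in the sample records and as carrying a negative control lentivirus in the methods (Ctrl), cells with a PGC-1α-overexpressing lentivirus (PGC-1α, titled PGC-A), and each of these kinds of cells deprived of oxygen and glucose (OGD, giving the groups Ctrl+OGD and PGC-1α+OGD). The transduced cells of the lentivirus groups had been selected with puromycin. OGD lasted 2 h, in serum- and glucose-free medium under nitrogen and carbon dioxide, followed by 24 h in normal medium, whereas the other 2 groups received no treatment. With 1 library per group, differences have no replicate check and are given without p values, each being one between 2 libraries.

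Complex I, NADH:ubiquinone oxidoreductase, is the entry point of the respiratory chain for electrons from NADH, and it couples their transfer to ubiquinone with the pumping of protons across the inner mitochondrial membrane. It is built as an L, with a matrix arm that holds the NADH module and the quinone module, and a membrane arm that holds the proton pumps. The catalytic core consists of nuclear-encoded subunits in the matrix arm and mitochondrially encoded subunits in the membrane arm, and accessory subunits surround it. PGC-1α is a coactivator that acts with transcription factors such as the estrogen-related receptors, NRF-1 and GABP on genes of the respiratory chain. Neurons depend on this chain for most of their ATP.

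Values are FPKM, in which fragments are set relative to the length of the transcript and the depth of the library. The deposited table does not name its unit, which was inferred from the values. The deposited transcripts of each gene were summed, and a fold change is a difference of log2(FPKM + 1), with 1.5-fold as the smallest difference that was counted. Where 4 values of a gene follow each other, the first pair is Ctrl and PGC-1α without OGD, and the second pair is the same with OGD. Column totals lay between 331892 and 353381, and the number of reads per library is unknown. A scan of assumed depths did not yield it. At most 35.0% of low values came within 0.1 of whole reads at any depth, against 20% for a uniform spread. The overexpressed gene Ppargc1a had 0.900 FPKM in Ctrl against 35.1 FPKM in PGC-1α, and after OGD 0.103 FPKM against 8.41 FPKM. Of 12 neuronal markers, 3 had values here (Dlg4, Camk2a and Eno2, none above 7.31 FPKM), and the others, such as Rbfox3, Map2, Tubb3 and Snap25, have none. The fibroblast collagen genes Col1a1 and Col1a2 lay between 156 and 265 FPKM in the 4 libraries, and the endothelial genes Pecam1 and Cldn5 have no values. Of the glial markers, Mbp (3.26 to 4.76 FPKM) and Aldh1l1 (2.32 to 4.53 FPKM) passed the filter. Slc1a3 and Cx3cr1 had values under it, and the other glial markers, such as Gfap and Aif1, have none. Levels in a bulk library do not tell a different share of cells from a different amount of RNA per cell.

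The 37 genes lie on 15 chromosomes, with 2 genes on X, and the table holds 78 transcripts for them. There were 17 genes with 1 transcript and 20 with 2 or more, up to 7 for Ndufs1. By role they comprise 7 core subunits (such as Ndufv1, Ndufv2 and Ndufs1 of the NADH module, and Ndufs3, Ndufs7 and Ndufs8 of the quinone module), 9 accessory subunits of the matrix arm, 19 accessory subunits of the membrane arm, and Ndufab1, the mitochondrial acyl carrier protein, which is bound in both arms. The remaining gene, Ndufa4, was named as a complex I subunit and is now assigned to cytochrome c oxidase (complex IV). Without it, no count of subunits past 1.5-fold changed. The coding length of the main transcript had a median of 789 bases in the core subunits and 393 bases in the 29 accessory subunits.

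Promoters were read for the genes on which the results turn, because PGC-1α acts through factors bound there. Reference promoters from RefSeq (build GRCm38.p6), which run from 250 bases before to 50 bases after the start site, were found for 33 of the 37 genes (35 promoters). Ndufs1, Ndufb9 and Ndufa2 were among those with no entry. The sequences shown are those of Ndufs3, the core subunit with a promoter entry whose PGC-1α library lay farthest above Ctrl, of Ndufa8 and Ndufb10, the 2 accessory subunits past 1.5-fold in the same comparison, and of Ndufa1, the subunit with the smallest difference. They lie at chr2:90904672-90904971, chr2:36049289-36049588, chr17:24724374-24724673 and chrX:37191189-37191488, all on the minus strand, and are written 5′ to 3′ in the direction of the gene. Capitals mark matches to the letters searched for on both strands: GCGCATGCG for NRF-1, AAGGTCA for estrogen-related receptors, CCGGAAG for GABP and other ETS factors, and AAGATGGCG for YY1.
Ndufs3: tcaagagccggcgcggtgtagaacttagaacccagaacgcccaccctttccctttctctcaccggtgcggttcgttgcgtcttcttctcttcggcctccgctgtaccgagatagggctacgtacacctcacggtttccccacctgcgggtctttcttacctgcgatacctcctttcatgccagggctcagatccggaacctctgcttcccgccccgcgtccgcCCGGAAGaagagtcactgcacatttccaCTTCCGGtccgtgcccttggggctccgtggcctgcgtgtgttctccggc
Ndufa8: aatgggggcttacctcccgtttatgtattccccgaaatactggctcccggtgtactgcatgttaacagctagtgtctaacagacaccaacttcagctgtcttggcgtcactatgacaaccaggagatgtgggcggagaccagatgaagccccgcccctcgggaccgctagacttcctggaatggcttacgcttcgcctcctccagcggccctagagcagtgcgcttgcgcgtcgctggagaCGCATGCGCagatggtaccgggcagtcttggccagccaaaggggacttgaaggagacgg
Ndufb10: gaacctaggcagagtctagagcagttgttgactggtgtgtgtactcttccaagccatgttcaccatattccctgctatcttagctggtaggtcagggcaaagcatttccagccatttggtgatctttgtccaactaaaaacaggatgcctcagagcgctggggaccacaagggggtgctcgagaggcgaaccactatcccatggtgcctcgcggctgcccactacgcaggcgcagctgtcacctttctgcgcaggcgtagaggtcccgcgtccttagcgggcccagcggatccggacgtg
Ndufa1: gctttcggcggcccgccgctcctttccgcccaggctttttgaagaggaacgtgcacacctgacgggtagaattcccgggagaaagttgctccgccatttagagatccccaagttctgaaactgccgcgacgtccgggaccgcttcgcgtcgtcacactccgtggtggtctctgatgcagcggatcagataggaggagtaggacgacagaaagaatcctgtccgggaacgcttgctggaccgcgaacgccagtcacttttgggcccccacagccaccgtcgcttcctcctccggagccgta

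The Ndufs3 promoter held the GABP letters at 2 places, 1 on each strand, and the Ndufa8 promoter held the NRF-1 letters once. In the windows of Ndufb10 and Ndufa1 none of these letters were found, although the former had the largest and the latter the smallest difference with PGC-1α. The start site used for Ndufa1 lay 75 bases upstream of the nearest GENCODE start. Its window ended before the annotated gene began, so letters within that gene could not be seen. Over the 35 promoters, the GABP letters were in 11.4%, against 19.1% of the 10733 promoters of tested genes and 8.86% of all 32851 promoters. The NRF-1 letters were in 5.71%, against 3.88% and 1.75%, and those of the estrogen-related receptors in 8.57%, against 3.10% and 4.72%. The YY1 letters were in 14.3% of the subunit promoters (5 of 35), against 3.27% and 1.40%. The median log2 fold change of PGC-1α vs Ctrl was 0.54 in subunit genes with the GABP letters and 0.38 in those without. These medians were 0.63 and 0.40 for NRF-1, 0.40 and 0.39 for the estrogen-related receptors, and 0.37 and 0.42 for YY1. Of 33 genes with a promoter, only 4 had the letters of GABP, 2 of NRF-1, 3 of the estrogen-related receptors and 5 of YY1. The medians with the letters thus rest on few genes, and their difference from the others was not tested. These matches describe the letters in a short window and are not evidence of binding.

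All 5 matches to the YY1 letters were on the strand of the gene and began between 22 and 35 bases after the start site. These stretches, from 10 bases before the start site to the end of the window, are shown because they share that placement. They are at chr6:126849095-126849154 (minus strand), chr3:51408906-51408965 (minus strand), chr13:114388045-114388104 (minus strand), chr13:73328433-73328492 (minus strand) and chr10:80249439-80249498 (plus strand) of GRCm38.p6, with the match in capitals.
Ndufa9: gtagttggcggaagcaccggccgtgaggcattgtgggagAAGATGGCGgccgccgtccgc
Ndufc1: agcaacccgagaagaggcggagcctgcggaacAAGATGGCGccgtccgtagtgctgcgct
Ndufs4: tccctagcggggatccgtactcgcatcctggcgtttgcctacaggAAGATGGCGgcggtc
Ndufs6: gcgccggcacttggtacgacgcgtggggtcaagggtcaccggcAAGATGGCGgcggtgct
Ndufs7: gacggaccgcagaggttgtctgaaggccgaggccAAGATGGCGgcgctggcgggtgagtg

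Yy1 itself had 15.2 FPKM in Ctrl against 15.2 FPKM in PGC-1α, and after OGD 14.6 FPKM against 14.2 FPKM. Esrra, the estrogen-related receptor α, had 4.73, 8.75, 5.13 and 7.30 FPKM in the same order, which makes a log2 fold change of 0.77 with PGC-1α and of 0.44 with PGC-1α under OGD. Nrf1 had a log2 fold change of -0.19 with PGC-1α and of -0.07 with PGC-1α under OGD. Of these factors, Esrra was past 1.5-fold in PGC-1α vs Ctrl, and Yy1 and Nrf1 were not. Of the 12 genes for PGC-1α family members and partner factors, 10 were tested. Esrra and the overexpressed Ppargc1a itself were higher by 1.5-fold in PGC-1α vs Ctrl, and Ppargc1a and Gabpa (log2 fold change 0.61) under OGD. Of all genes, 4.91% and 3.08% were higher in these comparisons. Gabpa had 34.7, 32.3, 23.2 and 35.9 FPKM, with a log2 fold change with PGC-1α of -0.10 without OGD. Its Ctrl+OGD value was the lowest, at -0.56 against Ctrl, and its PGC-1α+OGD value lay near that of Ctrl.

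The levels of the subunits spanned more than an order of magnitude. The lowest of all values was 9.58 FPKM, and the highest gene exceeded the lowest by 26.9-fold in Ctrl and by 21.9- to 24.0-fold in the others. The most abundant was Ndufb9, an accessory subunit of the membrane arm, with 258 FPKM in Ctrl against 304 FPKM in PGC-1α, and after OGD 292 FPKM against 327 FPKM. It was followed by Ndufa6, an accessory subunit of the matrix arm, with 237, 249, 235 and 274 FPKM. The core subunit Ndufv2, which carries an iron-sulfur cluster of the NADH module, had 150, 206, 203 and 216 FPKM. Thus of the 3 most abundant subunits, Ndufb9 belongs to the membrane arm, and Ndufa6 and Ndufv2 belong to the matrix arm. At the other end, Ndufb2 had 9.58, 13.4, 13.3 and 13.6 FPKM, Ndufa11 had 15.6, 23.6, 21.7 and 25.7 FPKM, and Ndufb3 had 22.5, 26.8, 24.5 and 27.0 FPKM, all 3 of them accessory subunits of the membrane arm. The rank order of the 37 genes was much alike between libraries, with Spearman's rho from 0.93 to 0.98 for the 6 pairs of libraries, as a description over genes that differ in length and base composition.

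**Figure D1:**
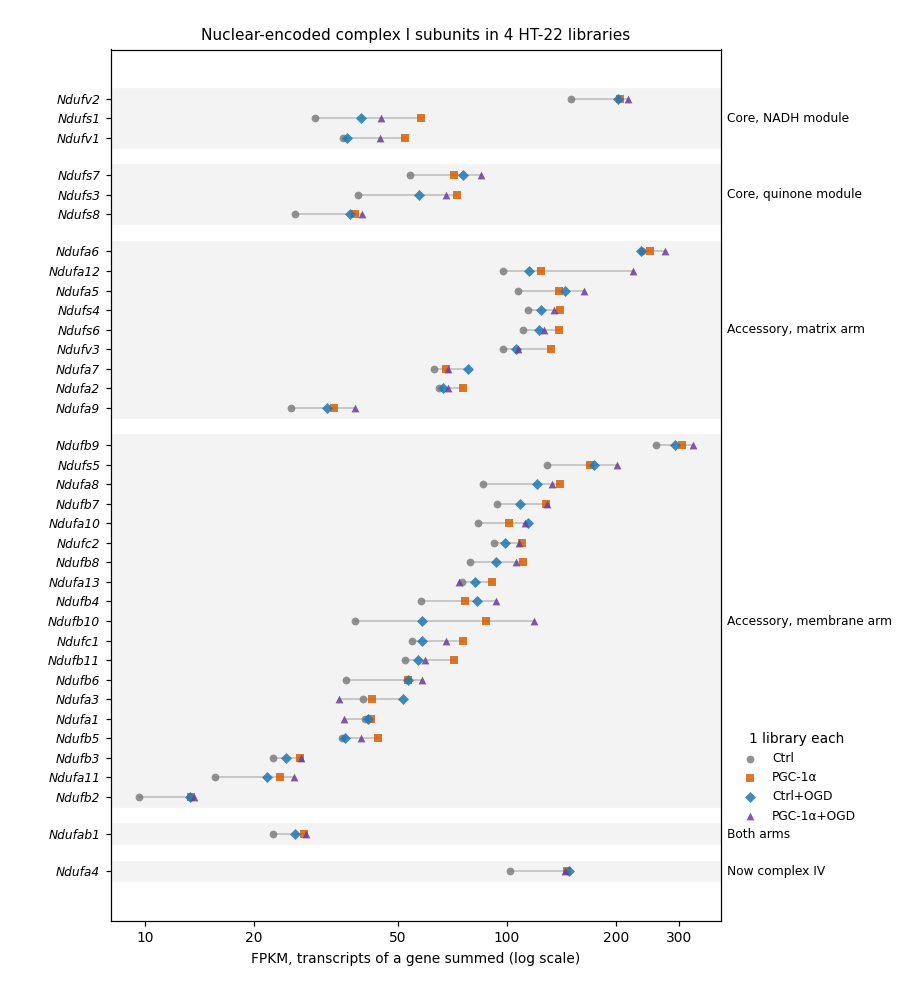
Level of 36 of the 37 genes in the 4 libraries, in FPKM on a log axis, with genes grouped by role and sorted by mean. Each point is 1 library and the grey line spans the 4 values; the grey circle of Ctrl is at the left end for 32 of the 36 genes.

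Across the 4 libraries, Ctrl had the lowest value for 33 of the 37 genes. Among all 10604 genes, Ctrl was the lowest for 28.2%. The exceptions were Ndufa1, Ndufa3 and Ndufa13, which were lowest in PGC-1α+OGD, and Ndufa6, which was lowest in Ctrl+OGD. The highest value was in a PGC-1α library for 17 genes after OGD and for 16 without it, in Ctrl+OGD for 4 and in Ctrl for 0. Among all genes these shares were 18.9%, 20.5%, 26.1% and 34.5%. The summed level of the 37 genes was 2745 FPKM in Ctrl against 3615 FPKM in PGC-1α, and after OGD 3305 FPKM against 3745 FPKM. As shares of the column totals these were 0.827%, 1.07%, 0.935% and 1.08%. On both measures Ctrl was the lowest and PGC-1α+OGD the highest, the latter close to PGC-1α. From PGC-1α to PGC-1α+OGD, 19 subunits were higher and 18 lower, and Ndufa12 alone went from 124 FPKM to 223 FPKM.

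In PGC-1α vs Ctrl, which asks what PGC-1α does in cells without deprivation, all 37 subunits had a log2 fold change above 0, from 0.05 to 1.18 with a median of 0.40. Among all genes tested, 45.8% were above 0 and the median was -0.03. At least 1.5-fold higher were 5 subunits (13.5%), against 4.91% of all genes, and 0 were lower, against 5.63%. They included the accessory subunits Ndufb10 and Ndufa8 of the membrane arm, and the core subunits Ndufs1 of the NADH module and Ndufs3 of the quinone module. The 7 core subunits had a median of 0.56 and lay between 0.40 and 0.96. The 9 accessory subunits of the matrix arm had a median of 0.32 and reached at most 0.43, so that no accessory subunit of the matrix arm was past 1.5-fold. The 19 accessory subunits of the membrane arm had a median of 0.40. With 1 library per group, whether these groups of subunits differ could not be tested. Over the 37 genes, the log2 fold change correlated with log2 coding length with r = 0.52, whereas over 10580 genes r was -0.06. The points share the same 2 libraries, and the core subunits have the longer coding sequences by median.

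Among the core subunits, Ndufs1 (ENSMUSG00000025968, minus strand of chromosome 1 from 63143596 to 63176833, GRCm38) carries iron-sulfur clusters that lead electrons away from NADH. It had 29.4 FPKM in Ctrl against 57.9 FPKM in PGC-1α, and after OGD 39.4 FPKM against 44.9 FPKM. The PGC-1α library was the highest and Ctrl the lowest, with a log2 fold change of 0.96 between them. Ndufs3, which has 1 transcript and lies on the minus strand of chromosome 2 from 90894634 to 90904827, had 38.7, 72.6, 57.1 and 67.8 FPKM (0.89). In these genes both PGC-1α libraries lay above both Ctrl libraries. The NADH-binding subunit Ndufv1 had 35.2, 52.3, 36.2 and 44.7 FPKM, a log2 fold change of 0.56 just under the 1.5-fold line. Ndufs8, which carries iron-sulfur clusters near the quinone site, had 25.9, 37.9, 36.8 and 39.7 FPKM (0.53), and Ndufv2 had a log2 fold change of 0.45. Ndufs7, which also lies near the quinone site, had 53.9, 71.3, 75.8 and 84.8 FPKM (0.40), the smallest difference of the core subunits. In Ndufs7, Ctrl+OGD lay above PGC-1α, unlike in the other core subunits.

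Among the accessory subunits, Ndufb10 (ENSMUSG00000040048, minus strand of chromosome 17 from 24722060 to 24724478, GRCm38) had the largest difference of all 37 genes. It had 38.0 FPKM in Ctrl against 87.4 FPKM in PGC-1α, and after OGD 58.2 FPKM against 119 FPKM. Both PGC-1α libraries were above both Ctrl libraries, with log2 fold changes of 1.18 without OGD and 1.02 with OGD. Ndufa8, which like Ndufb10 is located on the intermembrane space side, had 85.9, 140, 121 and 133 FPKM. Its log2 fold change was 0.70 without OGD and 0.14 with OGD. Ndufa11, at 0.57, and Ndufb6, at 0.56, came next among the accessory subunits, and both are part of the membrane arm. With a pseudocount of 0.1 the value of Ndufa11 was 0.60, past the 1.5-fold line. The smallest differences were those of Ndufa1 (40.4 FPKM and 42.0 FPKM, 0.05), Ndufa6 (0.07), Ndufa3 (39.9 FPKM and 42.3 FPKM, 0.08) and Ndufa7 (62.9 FPKM and 67.8 FPKM, 0.11), picked here after their values were seen. The other accessory subunits of the matrix arm, Ndufa2, Ndufa5, Ndufa9, Ndufa12, Ndufs4, Ndufs6 and Ndufv3, lay between 0.21 (Ndufa2) and 0.43 (Ndufv3). Among them, Ndufs4, which helps to hold the NADH module in place, had 114, 140, 124 and 135 FPKM, and Ndufa9, which lies near the quinone site, had 25.3, 33.2, 31.8 and 38.1 FPKM. The remaining subunits of the membrane arm, Ndufa10, Ndufa13, Ndufb2, Ndufb3, Ndufb4, Ndufb5, Ndufb7, Ndufb8, Ndufb9, Ndufb11, Ndufc1, Ndufc2 and Ndufs5, lay between 0.24 (Ndufb3 and Ndufb9) and 0.48 (Ndufb8). Thus most accessory subunits were in a narrow band under the 1.5-fold line. Ndufab1 had 22.6 FPKM in Ctrl against 27.4 FPKM in PGC-1α (0.26). Ndufa4, now assigned to complex IV, had 102, 147, 148 and 145 FPKM, a log2 fold change of 0.53.

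The comparison PGC-1α+OGD vs Ctrl+OGD sets the PGC-1α cells against the control cells after deprivation, with Ppargc1a at 8.41 FPKM in the former. Here 31 of the 37 subunits were above 0 on the log2 scale, and the median was 0.14. Of all genes, 47.1% were above 0, with a median of -0.01. The 2 subunits at least 1.5-fold higher (5.41%, against 3.08% of all genes) were Ndufb10 and Ndufa12, and 0 were lower, against 3.82% of all genes. Ndufa12, an accessory subunit of the matrix arm, had 97.4 FPKM in Ctrl against 124 FPKM in PGC-1α, and after OGD 115 FPKM against 223 FPKM. It therefore stood out in 1 library, with a log2 fold change with PGC-1α of 0.95 under OGD against 0.35 without. An annotated processed pseudogene, Gm15920, matches 71.0% of the main Ndufa12 transcript at 99.5% identity and has no value here, and its part in this value was not tested. The 7 core subunits were all above 0, with a median of 0.19, from Ndufv2 at 0.09 upwards. Below 0 were Ndufa3 (51.5 FPKM and 34.4 FPKM, -0.57), Ndufa1 (-0.21), Ndufa7 (-0.18), Ndufa13 (-0.15), Ndufa10 (-0.03) and Ndufa4 (-0.03).

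**Figure D2:**
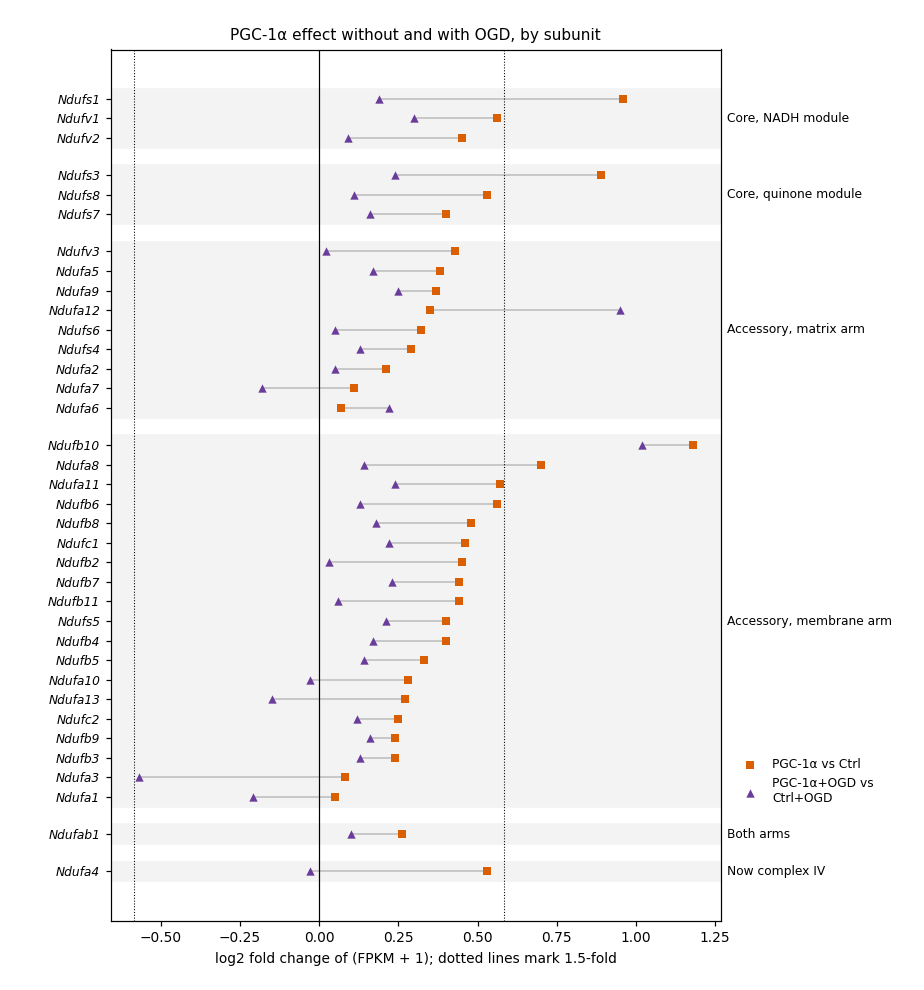
Log2 fold change of (FPKM + 1) with PGC-1α for 36 of the 37 genes without OGD (squares) and with OGD (triangles), grouped by role; dotted lines mark 1.5-fold, and each value compares 1 library with 1 library. All squares lie right of 0, and the triangle lies left of the square for 34 of the 36 genes, Ndufa12 and Ndufa6 being the exceptions.

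The difference between the PGC-1α effects with and without OGD was negative for 35 of the 37 subunits, with a median of -0.27 on the log2 scale. Of all genes, 49.3% were below 0 in this difference, with a median of 0.01. It was negative for all 7 core subunits, between -0.77 for Ndufs1 and -0.24 for Ndufs7. Ndufa12, at 0.60, and Ndufa6, at 0.15, went the other way. At 1.5-fold or more, 3 subunits were lower in this difference (8.11%, against 7.28% of all genes) and 1 was higher (2.70%, against 7.69%), so that the share of large differences was near or under that of all genes. A negative difference was also seen for 39 of the 42 tested nuclear subunits of complexes II to V (median -0.29). Of the 7 mitochondrially encoded complex I subunits, 6 were below 0 (median -0.35). Ppargc1a itself had 35.1 FPKM in PGC-1α and 8.41 FPKM in PGC-1α+OGD, with log2 fold changes with PGC-1α of 4.25 and 3.09. Whether its level bears on the difference was not tested. The difference for the 37 subunits uses all 4 libraries, including Ctrl, the lowest for most subunits, and it has no error estimate. After a linear trend in transcript length and GC content over all genes was removed, its median was -0.15.

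In Ctrl+OGD vs Ctrl, which asks what deprivation and the following day in normal medium did to control cells, 36 of the 37 subunits had a log2 fold change above 0, the exception being Ndufa6 at -0.01. The median was 0.24, while 48.0% of all genes were above 0 with a median of -0.02. Only Ndufb10, at 0.60, reached 1.5-fold (2.70% of the subunits, against 6.20% of all genes), and 0 subunits were lower, against 7.71%. Ndufb10 fell short of it, at 0.57 with upper quartile scaling and at 0.43 after removal of a linear trend in transcript length and GC content. Nearly all subunits thus lay slightly above 0, and the share past 1.5-fold was not above that of all genes. The core subunits Ndufs3 (0.55), Ndufs8 (0.49) and Ndufs7 (0.48) were among the larger differences, and Ndufv1 (0.04) was the smallest of the core. The Ctrl library is also the reference of PGC-1α vs Ctrl, so a low Ctrl value enters both. Shorter genes were higher in this comparison (r = -0.18 with log2 length over all genes), and after removal of the trend in length and GC content the median of the subunits was 0.10, with 26 of 37 above 0.

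When PGC-1α+OGD was set against PGC-1α, the subunits were divided, with 19 above 0 and 18 below, and a median of 0.01. Of all genes, 50.1% were above 0. Ndufa12, at 0.84, was the only subunit at least 1.5-fold higher, against 3.82% of all genes, and 0 were lower, against 5.22%. The next largest differences were those of Ndufb10 (0.44), Ndufb4 (0.28) and Ndufs5 and Ndufs7 (0.25 each), and the largest in the other direction was that of Ndufs1 (-0.36). When the columns were scaled to the same total, 14 subunits were above 0 and their median was -0.03, as was that of all genes.

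**Figure D3:**
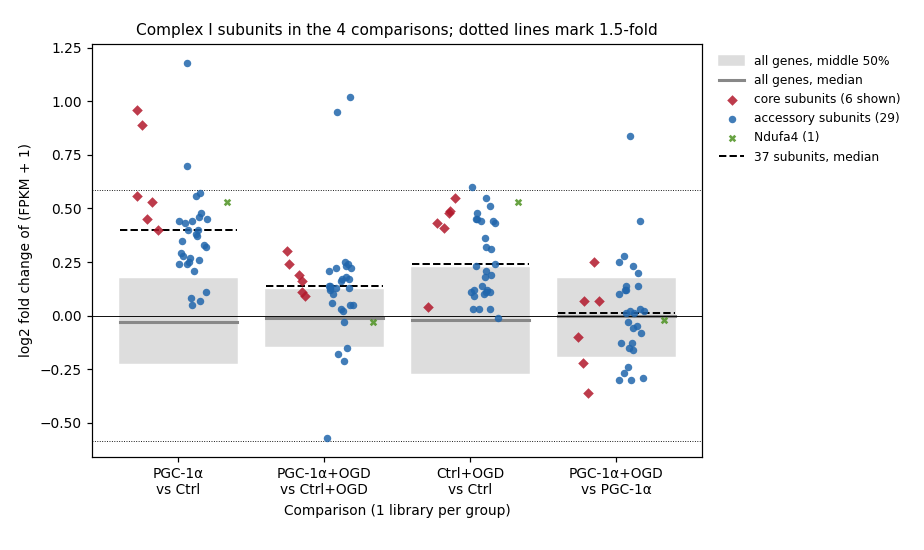
Log2 fold changes of 36 of the 37 genes in the 4 comparisons (diamonds, 6 core subunits; circles, 29 accessory subunits; cross, Ndufa4) over the median and the middle 50% of all 10604 genes (grey), with 1 library per group. The median of all 37 subunits (dashed) is 0.40, 0.14, 0.24 and 0.01 from left to right.

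Since 20 of the genes have several transcripts, the transcripts behind the sums were examined. With the most abundant transcript in place of the sum, 8 subunits instead of 5 were at least 1.5-fold higher in PGC-1α vs Ctrl, and 35 of 37 instead of all were above 0. Of all genes, 7.80% were higher by that reading. The 3 added genes were Ndufs5, Ndufb6 and Ndufv1. For Ndufs1, transcripts 201 and 203 have the same coding length of 2181 bases. Transcript 201 had 12.9 FPKM in Ctrl against 13.2 FPKM in PGC-1α, and after OGD 4.90 FPKM against 17.5 FPKM. Transcript 203 had 13.8, 37.7, 32.0 and 23.8 FPKM. Its share of the gene went from 47.0% in Ctrl to 81.3% in Ctrl+OGD, and the log2 fold change with PGC-1α under OGD was 1.65 by transcript 201 and -0.41 by transcript 203, against 0.19 for the sum. The direction of Ndufs1 with PGC-1α under OGD thus depended on the transcript read.

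A similar exchange in the deposited values was seen in Ndufs7, where both transcripts have a coding length of 672 bases. Transcript 201 had 35.7, 32.2, 36.1 and 50.4 FPKM in the same order of libraries, and transcript 202 had 18.3, 39.1, 39.7 and 34.3 FPKM. In these values the difference between PGC-1α and Ctrl in this gene lay in transcript 202. How reads shared between transcripts of a gene were divided is not given in the sources used here. The part of this division in the transcript values was not tested. In Ndufs5, an accessory subunit of the membrane arm, transcript 201 had 91.5, 151, 163 and 190 FPKM, while transcript 202, with the same coding length of 318 bases, had 17.3, 1.19, 2.33 and 3.67 FPKM. The latter was thus highest in Ctrl, the library in which the sum was lowest (129, 170, 174 and 202 FPKM). In Ndufv3, an accessory subunit of the NADH module chosen here after its values were seen, the transcripts differ in coding length, 1404 bases for 201 and 312 bases for 202. The long form made up 36.9% of the gene in Ctrl against 46.4% in PGC-1α, and after OGD 28.7% against 40.7%. Its level was 36.1, 61.4, 30.4 and 43.7 FPKM, higher with PGC-1α both without OGD (0.75) and with OGD (0.51), and lower with OGD in both kinds of cells. For the short form these log2 fold changes with PGC-1α were 0.19 and -0.24.

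**Figure D4:**
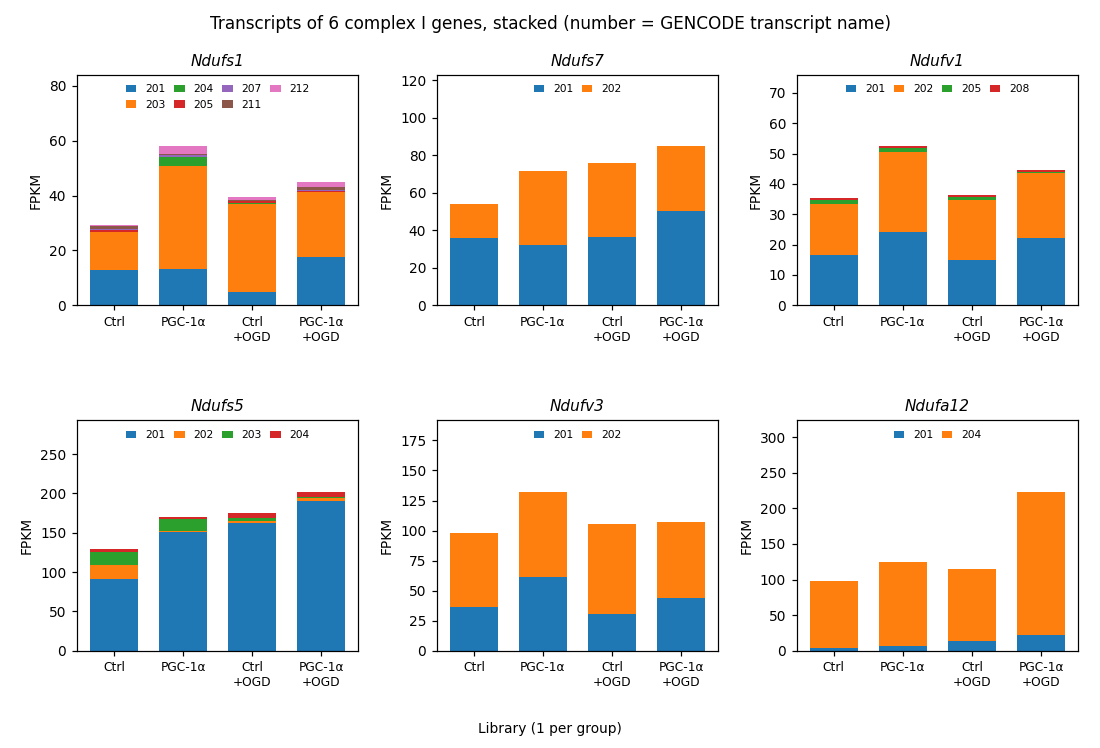
Transcripts of 6 genes stacked in FPKM for each library (1 per group), with the axis starting at 0 and colours naming GENCODE transcripts. In Ndufs1 the share of transcript 203 ranges from 47.0% in Ctrl to 81.3% in Ctrl+OGD, while Ndufa12 stands out in PGC-1α+OGD at 223 FPKM in sum.

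The 17 subunits with 1 transcript are free of such exchange within the table. All 17 were above 0 in PGC-1α vs Ctrl, against 45.8% of all genes, with a median of 0.29. Of them 2, Ndufs3 and Ndufa8, were at least 1.5-fold higher (11.8%, against 4.91% of all genes). In PGC-1α+OGD vs Ctrl+OGD, 13 of the 17 were above 0 (76.5%, against 47.1% of all genes). At 1.5-fold or more 0 were higher, against 3.08% of all genes, and 0 were lower, against 3.82%. Processed pseudogenes that match at least 50% of the main transcript at 95% identity or more are annotated for 5 subunits, namely Ndufa12, Ndufb11, Ndufs3, Ndufs5 and Ndufs6, and reads shared with them cannot be separated. Exons shared on the same strand with another gene occur for Ndufb2, Ndufb8 and Ndufb9, and on the opposite strand for 14 subunits. Whether the counting used the strand is not given in the sources used here.

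Other genes of complex I were compared side by side. The 7 mitochondrially encoded core subunits, transcribed inside the organelle, had values from 91.7 FPKM (mt-Nd3) to 1449 FPKM (mt-Nd1) in Ctrl. In PGC-1α vs Ctrl all 7 were above 0 with a median of 0.46. At least 1.5-fold higher were 3 (42.9%, against 4.91% of all genes), mt-Nd1 (1449 FPKM and 2364 FPKM, 0.71), mt-Nd2 (0.65) and mt-Nd3 (0.60). With PGC-1α under OGD all 7 were above 0 with a median of 0.30, and the medians for OGD were 0.19 in control cells and 0.00 in PGC-1α cells. Of 18 complex I assembly factors, which help to build the complex without staying in it, 17 were tested, with medians of 0.21 and 0.04 with PGC-1α without and with OGD. Of these, 2 were at least 1.5-fold higher without OGD, Ndufaf4 and Ecsit (0.63), which makes 11.8%, against 4.91% of all genes. Lower were 0, against 5.63% of all genes. Ndufaf4 had 3.78 FPKM in Ctrl against 12.8 FPKM in PGC-1α, and after OGD 4.07 FPKM against 8.74 FPKM, with log2 fold changes of 1.53 and 0.94. Acad9 was the assembly factor that was at least 1.5-fold lower with PGC-1α under OGD (8.75 FPKM and 4.84 FPKM, -0.74). This makes 5.88% of the assembly factors, against 3.82% of all genes.

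The 42 tested nuclear subunits of complexes II to V had median log2 fold changes with PGC-1α of 0.50 without OGD and 0.18 under OGD, beside 0.40 and 0.14 for the complex I genes. For OGD the medians were 0.26 in control cells and -0.01 in PGC-1α cells, beside 0.24 and 0.01. In PGC-1α vs Ctrl, 13 of the 42 genes were at least 1.5-fold higher and 1 was lower, against 5 and 0 of the 37 complex I genes. The shares higher were 31.0% and 13.5%, beside 4.91% of all genes. Of all genes, 5.63% were lower, beside 2.38% of the 42 genes. The difference between complex I and the other complexes was not tested.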

How the data were processed

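Poly(A) RNA of HT-22 cells was sequenced from both ends after stranded library preparation, with 1 library for each of 4 groups, taken from the sample records. The authors aligned the reads to GRCm38 with HISAT2 2.1.0 and deposited 1 value per transcript. FPKM is the unit inferred for the deposited values, since the authors name none in the header or the labels. The quantifier, annotation and filter are not given in the sources used here. Every listed transcript reached 0.500 FPKM in at least 1 library. Of 25889 transcripts, 25822 (99.7%) were matched by identifier without version to GENCODE release M21 and summed per gene symbol. The study's 1.5-fold criterion was applied to differences of log2(FPKM + 1) without its p value, since groups have 1 library. Counts of reads are unknown, so no precision can be given for a single value. Members, gene lists and the rule for named genes (core subunits, those past 1.5-fold, the 3 most and least abundant, and those whose call depends on the transcript) were chosen with earlier results of these data known. 1 of the 37 genes enters the counts, sums and medians but is not reported here by itself or drawn. Other settings tried were a pseudocount of 0.1 or 0.01, a mean of at least 5 or no minimum, the highest transcript, median ratio, upper quartile and total scaling, leaving out Ndufa4, and 2-fold; added after seeing the data were genes with 1 transcript, genes without near-identical copies, and removal of a linear trend in length and GC content. Python 3.11.15, numpy 2.4.6, pandas 2.3.3, matplotlib 3.10.9 and BLAST 2.17.0 were used, and the calculation was tested on simulated data.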

Additional observations from a re-analysis of the deposited data

Results flagged for a closer look

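For 3 subunits the PGC-1α effect with OGD minus that without OGD was at least 1.5-fold, and the sign of an effect was opposite under the 2 conditions. These 3 are all the subunits with a difference of that size below 0, which makes 8.11%, against 7.28% of all genes. The share of all genes that also met the condition on opposite signs was not computed. These differences were not tested, as each group has 1 library. For Ndufs1 the difference was -0.77 on the log2 scale, and OGD went with a higher value in control cells (0.41) and a lower one in PGC-1α cells (-0.36). For Ndufs3 it was -0.65, with OGD values of 0.55 and -0.10. For Ndufa3, an accessory subunit of the membrane arm, it was -0.65, and its PGC-1α effect was 0.08 without OGD and -0.57 with OGD.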

How the results depend on the processing

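Of 212 recomputed summary values, 188 kept their size (counts within 1.5 times, medians within 0.1) and 24 moved. All 37 subunits stayed above 0 in PGC-1α vs Ctrl under every scaling. After removal of the trend in length and GC content 36 did, and with the highest transcript 35. A pseudocount cannot change the sign of a difference, and the filters left out no subunit. Agreement in sign under these settings was thus fixed in advance, although they are among the settings counted above. With the highest transcript, the counts at least 1.5-fold higher were 8 in PGC-1α vs Ctrl, 3 in Ctrl+OGD vs Ctrl and 2 in PGC-1α+OGD vs PGC-1α, where 1 was lower. Of all genes, 7.80%, 9.59% and 7.46% were higher in these comparisons by that reading. At 2-fold the counts higher were 1, 1, 0 and 0 in the 4 comparisons, in the order of the report. The shares of all genes were 1.47%, 1.02%, 1.49% and 1.19%. In Ctrl+OGD vs Ctrl, 0 subunits were past 1.5-fold with upper quartile scaling, total scaling or trend removal, and after trend removal the median was 0.10 and that of the difference of PGC-1α effects -0.15. With the 17 genes of 1 transcript, 2, 0, 0 and 0 were higher and 17, 13, 16 and 9 were above 0. The median of PGC-1α vs Ctrl was 0.29, and fewer genes entered. Of all genes, 4.91%, 3.08%, 6.20% and 3.82% were higher in the 4 comparisons. Without the 5 genes with near-identical copies, 1 was higher in PGC-1α+OGD vs Ctrl+OGD and 0 in PGC-1α+OGD vs PGC-1α, as Ndufa12 was left out. Other causes were not tested. Of 1820 values of single subunits, 3 lost the 1.5-fold call, all of Ndufb10 in Ctrl+OGD vs Ctrl, 7 were past 1.5-fold but not 2-fold, 11 gained the call, and 0 called values reversed. No paired analysis was possible because each group has 1 library. Unknown depth limits every value.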

Other observations

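Other genes tied to complex I also differed between the libraries. Aifm1, the apoptosis-inducing factor needed for complex I biogenesis, had 16.5 FPKM in Ctrl against 55.2 FPKM in PGC-1α, and after OGD 41.9 FPKM against 55.3 FPKM. Like most subunits it was lowest in Ctrl, with log2 fold changes of 1.68 with PGC-1α and 1.29 with OGD in control cells, larger than those of any nuclear-encoded subunit in the same comparisons. Ndufa4l2, a paralog of Ndufa4 that is known to be induced by hypoxia, had 10.8, 8.25, 9.04 and 2.70 FPKM in the same order. It was lowest in PGC-1α+OGD, at a log2 fold change of -1.44 against Ctrl+OGD and of -1.32 against PGC-1α. The genes in this part were singled out after their values were seen, and none of these differences has a replicate check.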
